A study of Mus musculus with 6 samples.

Results

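The cell surface of epithelial cells is coated with sugar chains, and the enzymes that finish those chains are the subject here: the sialyltransferases (St3gal, St6gal, St6galnac and St8sia genes), the fucosyltransferases (Fut), the β3- and β4-galactosyltransferases and β3-N-acetylglucosaminyltransferases (B3galt, B3gnt, B4galt), the GalNAc-transferases that start mucin type O-glycans (Galnt), the branching enzymes (Gcnt), and 4 genes that make, activate, carry or acetylate sialic acid (Gne, Cmas, Slc35a1, Casd1). They were chosen by the start of the gene name, or by name for the last 4, with earlier results of these data known. They made up 77 of the 21959 genes in the count table. Of these, 44 had enough counts to be tested between the lines and 33 did not. In the paclitaxel-resistant line, 12 of the 44 were higher and 11 were lower than in the parental line, beside 14.1% and 15.6% of all tested genes. The largest differences among members in each direction were in sialic acid genes: Casd1 was 24.6-fold higher and St6gal1 was 16.0-fold lower. The branching genes Gcnt4 and Gcnt3 and the neighbouring fucosyltransferase genes Fut1 and Fut2 each moved in opposite directions, while the most abundant member, B3gnt3, was not called different.

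RNA was sequenced from MPC, a mouse gastric adenocarcinoma line, and from MPC-PTX, the line raised from it by over 30 cycles of paclitaxel (PTX), a drug that stabilizes microtubules. There were 3 libraries per line. The study calls the same lines MTC and MTC-R. Both carry the genotype CDH1-/-;Trp53-/- and were grown in RPMI medium with serum. They descend from gastric organoids of a C57BL/6J mouse with floxed Trp53 and Cdh1 and Mist1-CreER, in which Cre was induced in culture, passed through a subcutaneous tumour in a BALB/c nude mouse and were each taken through single-clone selection, so each group is 1 clone and drug exposure and clonal origin cannot be told apart. Cdh1, in which the deletion removes a single exon, was not called different, and counts per gene do not check that deletion. The labels give no age, put all 6 libraries in batch 1 and do not say that replicates were separate cultures, so the p-values measure the spread between these libraries, which may be technical.

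As background, sugar chains are built in the Golgi by enzymes that add 1 sugar at a time from an activated donor. Galactosyl- and N-acetylglucosaminyltransferases lengthen the chain, Gcnt enzymes branch it, and sialyl- and fucosyltransferases cap it. The linkage of the cap (α2,3 or α2,6 for sialic acid; α1,2, α1,3 or α1,6 for fucose) decides which lectins and antibodies recognise it, and blood group H and Lewis structures of the gastric surface are made by members of these families. Transcript counts measure none of these structures.

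The start regions of the most increased and the most decreased member are shown first, since these genes carry the widest differences among the tested members. The sequences come from RefSeq on GRCm38.p6, 5′ to 3′ on the gene's strand, and capitals mark exact matches on either strand to 2 short promoter motifs, the GC box GGGCGG (reverse CCGCCC) and the CCAAT box CCAAT (reverse ATTGG), which do not overlap each other here. Casd1 has 2 annotated starts and St6gal1 has 3, of which the outer pair is shown.
Casd1, upstream start, chr6:4600661-4600960, plus strand: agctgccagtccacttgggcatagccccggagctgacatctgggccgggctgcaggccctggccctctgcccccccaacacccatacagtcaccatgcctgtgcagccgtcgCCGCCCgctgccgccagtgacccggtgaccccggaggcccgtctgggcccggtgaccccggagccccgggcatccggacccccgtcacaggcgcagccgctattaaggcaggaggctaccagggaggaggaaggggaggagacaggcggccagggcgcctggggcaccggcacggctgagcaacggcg
Casd1, downstream start, chr6:4623661-4623960, plus strand: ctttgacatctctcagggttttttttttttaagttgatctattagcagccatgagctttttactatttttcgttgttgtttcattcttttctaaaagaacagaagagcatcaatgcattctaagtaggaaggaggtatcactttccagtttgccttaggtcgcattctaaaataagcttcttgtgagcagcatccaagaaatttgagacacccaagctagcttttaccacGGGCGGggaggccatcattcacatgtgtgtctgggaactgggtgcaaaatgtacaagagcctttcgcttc
St6gal1, upstream start, chr16:23224490-23224789, plus strand: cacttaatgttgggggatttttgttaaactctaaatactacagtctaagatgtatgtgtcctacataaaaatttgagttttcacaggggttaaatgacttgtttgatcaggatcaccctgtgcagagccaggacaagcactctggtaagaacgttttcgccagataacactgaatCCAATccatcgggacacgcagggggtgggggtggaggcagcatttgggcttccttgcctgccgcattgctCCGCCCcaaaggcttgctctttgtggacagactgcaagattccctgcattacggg
St6gal1, downstream start, chr16:23290220-23290519, plus strand: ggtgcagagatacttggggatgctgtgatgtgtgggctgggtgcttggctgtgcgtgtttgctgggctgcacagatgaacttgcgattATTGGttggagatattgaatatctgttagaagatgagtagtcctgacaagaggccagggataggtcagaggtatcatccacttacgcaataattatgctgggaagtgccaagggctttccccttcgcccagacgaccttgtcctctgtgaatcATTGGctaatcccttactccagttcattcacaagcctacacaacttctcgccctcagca
The upstream Casd1 region was 72.7% G or C and held 23 CpG sites, and the downstream one was 40.7% G or C with 5 CpG sites. Those of St6gal1 were 48.0% and 49.7% G or C, with 7 and 6 CpG sites. Each Casd1 region held 1 GC box, the upstream St6gal1 region held 1 GC box and 1 CCAAT box, and the downstream one held 2 CCAAT boxes. Over all 32851 mouse start regions of this length in the table, 35.7% held a GC box and 37.4% a CCAAT box. None of these 4 regions held TATAAA, the core of the TATA box, which 13.6% of all regions held. Matched by symbol, 31 of the 44 tested members had a region in the table, 45 in all, and 27 of those 45 (60%) held a GC box, 13 (28.9%) a CCAAT box and 2 (4.44%) a TATA box. These 45 regions belong to genes with enough counts to be tested, while the 32851 were not chosen by counts. The 45 were also richer in G or C (median 59.7% beside 52.7%) and in CpG sites (median 18 beside 7), so the shares are not like for like. A match is a description of the letters only, and counts per gene do not show which start was used.

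Libraries held 16574580 to 23148182 counts on genes, and 13897 to 14295 genes were detected in each. Values are given as CPM, read counts relative to library sizes scaled with TMM, with the SD over the 3 libraries of a line, and levels of different genes are compared only as RPKM, which also divides by exon length. Calls rest on the quasi-likelihood test of edgeR, at a limit of 0.05 on the p adjusted after Benjamini and Hochberg over all 11795 tested genes, and the ± after a log2 fold change is its standard error. MPC replicate 3 stood apart from the other MPC libraries, and libraries of MPC varied more (biological coefficient of variation 17.9%) than those of MPC-PTX (3.01%). Of the 8 epithelial markers, 7 were lower in MPC-PTX and none was higher, where 15.6% of all tested genes were lower and 14.1% higher. Their summed CPM was 8040 to 9248 in MPC and 4730 to 4855 in MPC-PTX. Of the 17 gastric markers, 7 were tested, 6 were lower and 1 was higher, with summed CPM of 1332 to 1557 in MPC and 815.0 to 825.5 in MPC-PTX, and Tff1, Tff2, Gkn2 and Pgc were at 0 in all 6 libraries. The summed CPM of 8 fibroblast markers was 9.83 to 10.9 in MPC and 8.63 to 9.92 in MPC-PTX, that of 8 leukocyte markers 11.3 to 12.8 and 9.80 to 10.7, and that of 8 endothelial markers 3.76 to 5.1 and 3.34 to 3.67. The leukocyte marker Ptprc had at most 6 counts in a library, the endothelial marker Pecam1 at most 9 and the fibroblast marker Lum at most 3. Other markers of these lists were detected in every library: Cd68 had 150 to 242 counts, Kdr 36 to 50 and Col1a1 58 to 122. Col1a1 was lower in MPC-PTX (log2 fold change -0.80, edgeR adjusted p = 0.00389). The part of the lower epithelial and gastric markers in the results below was not tested, and in RNA from a whole culture, fewer cells of a type and less RNA per cell cannot be told apart.

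Of the 44 tested members, 23 were called (52.3%), where 29.7% of all tested genes were called. In MPC-PTX, 12 were higher, beside 14.1% of all tested genes, and 11 were lower, beside 15.6%. With an absolute log2 fold change above 1 as well, 6 were higher, beside 3.54%, and 5 were lower, beside 4.2%. The median log2 fold change of the members was 0.07, and that of all tested genes 0.04, so the members moved in both directions. The median absolute log2 fold change was 0.37 for the members and 0.24 for all tested genes. For 27 of the 44 members the CPM of the lines did not overlap, beside 46.9% of all tested genes. These counts moved with the libraries used. Without MPC replicate 1, 26 members were called, and 36.0% of all genes tested in that fit. Without MPC replicate 2, 15 members were called, and without MPC-PTX replicates 1, 2 and 3, 13, 13 and 14 were, while 18.0%, 16.2%, 16.0% and 16.2% of all genes tested in those fits were called. Without MPC replicate 3, 30 members were called, of 46 tested, and 52.5% of all genes. Of the 11 members past the fold limit, 8 stayed past it and the test whichever library was left out: Casd1, Gcnt4, B4galt2, Fut1, St6gal1, St6galnac2, Fut2 and Gcnt3. Without MPC replicate 3, 8 tested members that had not been called were called as well: Fut8, Fut9, Galnt7, Gcnt1, Slc35a1, Cmas, B3gnt3 and St3gal3 (edgeR adjusted p = 0.000338 to 0.0393). Without MPC replicate 1, B4galt6, Galnt4 and Gcnt2 were (0.0228, 0.0168 and 0.0119).

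**Figure D1:**
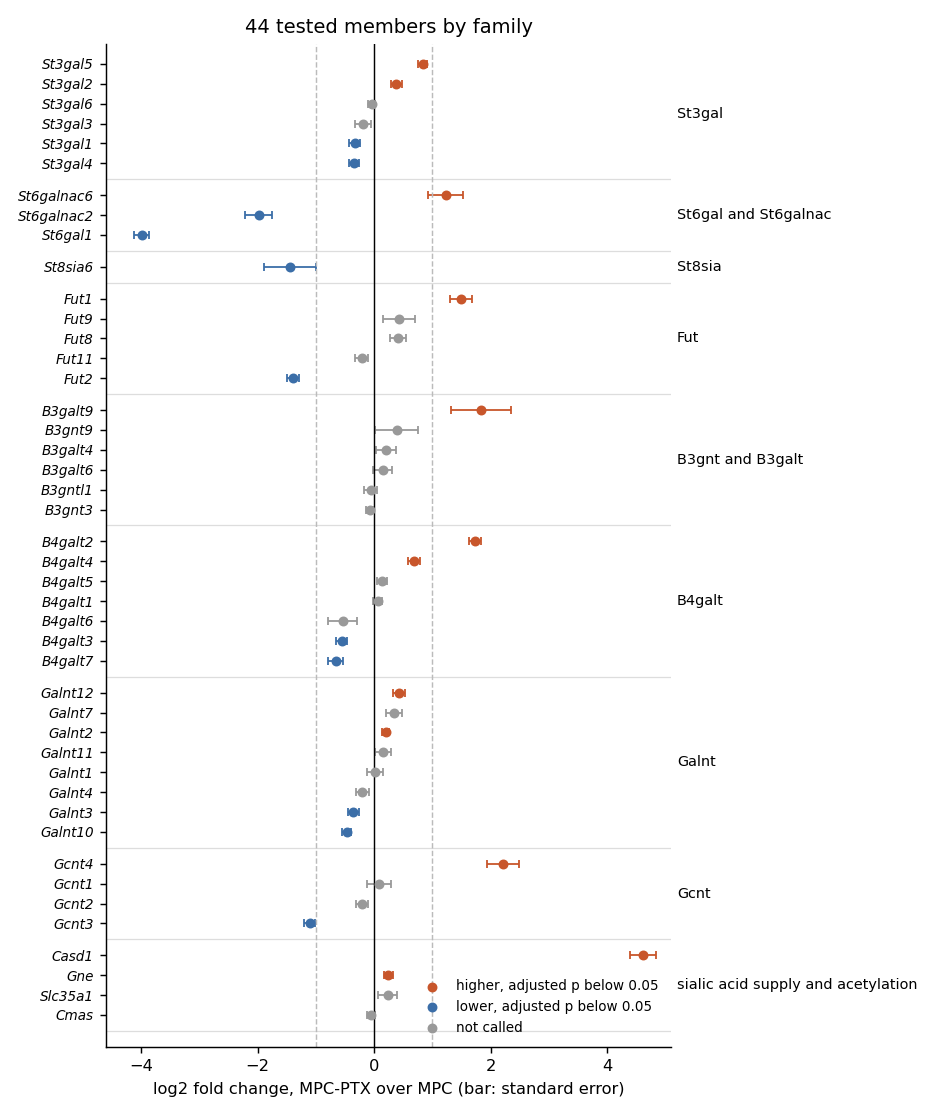
Log2 fold change of MPC-PTX over MPC (horizontal axis) for each of the 44 tested members, grouped by family, with bars for the standard error and dashed lines at -1 and 1. The 12 orange points were called higher, the 11 blue points lower and the 21 grey points were not called; Casd1 at 4.62 and St6gal1 at -4.00 lie farthest from 0.

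The enzymes that supply sialic acid differed little between the lines, and the enzyme that acetylates it differed most of all members. Gne, the enzyme of the first steps of sialic acid synthesis, had 36.0, 34.6 and 32.3 CPM in the MPC libraries and 41.1, 40.4 and 40.3 CPM in the MPC-PTX libraries, with no overlap. Its log2 fold change was 0.24 ± 0.08 (edgeR adjusted p = 0.0489), and this call was lost without MPC replicate 2 (adjusted p = 0.122), without MPC replicate 3 (adjusted p = 0.0956) and without MPC-PTX replicates 1, 2 and 3 (adjusted p = 0.172, 0.159 and 0.150) and in DESeq2 (0.157). Cmas, which activates sialic acid to CMP-sialic acid, had 112 ± 5.67 CPM (SD, n = 3) in MPC and 108 ± 1.35 in MPC-PTX (log2 fold change -0.05 ± 0.06, edgeR adjusted p = 0.567). Slc35a1, which carries CMP-sialic acid into the Golgi, had 16.1 ± 3.56 CPM in MPC and 19.0 ± 1.38 in MPC-PTX (log2 fold change 0.23 ± 0.16, edgeR adjusted p = 0.322).

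Casd1 (ENSMUSG00000015189, chromosome 6 of GRCm38, 4600839 to 4643355) encodes the enzyme that O-acetylates sialic acid in the Golgi. It had 4, 5 and 7 counts in the MPC libraries and 177, 144 and 106 counts in the MPC-PTX libraries, which is 0.212, 0.258 and 0.336 CPM against 7.56, 6.49 and 6.30 CPM. Every MPC-PTX library was far above every MPC library. The log2 fold change was 4.62 ± 0.22 (edgeR adjusted p = 2.44e-05) and ranged from 4.48 to 4.77 when any library was left out. With so few counts in MPC the gene entered the test through the MPC-PTX libraries alone. As RPKM, Casd1 was the lowest of the 44 tested members in MPC (0.0666 ± 0.0155) and stood at place 36 in MPC-PTX (1.68 ± 0.168), still below Gne, Slc35a1 and Cmas. Siae, the esterase that removes the acetyl group again, was tested and not called (log2 fold change -0.14, edgeR adjusted p = 0.276).

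**Figure D2:**
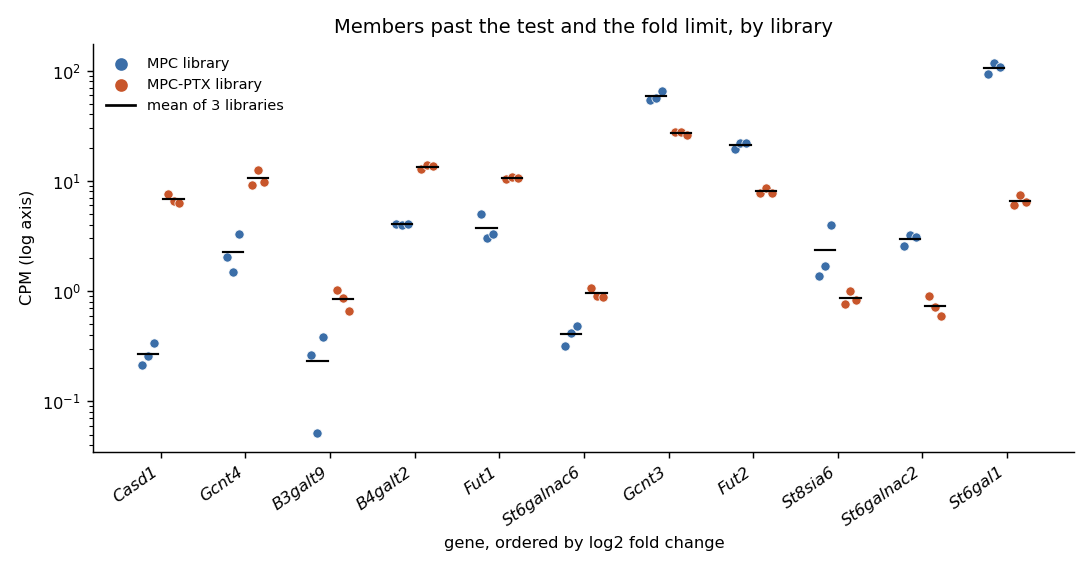
CPM on a log axis for the 11 members past the test and the fold limit, ordered by log2 fold change from Casd1 to St6gal1, with 1 point per library (blue MPC, orange MPC-PTX) and a black bar for the mean of 3 libraries. The lines do not overlap for any of the 11, and the MPC libraries of B3galt9 and St8sia6 are the most widely spread.

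GalNAc-transferases, which attach the first sugar of mucin type O-glycans to serine or threonine, kept their summed level and shifted in small steps. Their summed RPKM was 149.7 in MPC and 150.1 in MPC-PTX. Of 17 members, 8 were tested, 2 were higher and 2 lower, all by less than 0.5 on the log2 scale, where 29.7% of all tested genes were called. Galnt2, the second most abundant of all tested members, rose from 206, 199 and 187 CPM in MPC to 228, 229 and 221 CPM in MPC-PTX (log2 fold change 0.20 ± 0.06, edgeR adjusted p = 0.0446), a call that was lost without MPC replicate 2 (adjusted p = 0.118), MPC replicate 3 (0.0672) or MPC-PTX replicate 1 (0.163), 2 (0.171) or 3 (0.122) and in DESeq2 (0.186). Galnt12 rose from 10.8 ± 0.96 to 14.5 ± 0.507 CPM (log2 fold change 0.43 ± 0.10, edgeR adjusted p = 0.0200). The falls were those of Galnt10, from 130.6 ± 9.87 to 94.0 ± 2.11 CPM (log2 fold change -0.47 ± 0.07, edgeR adjusted p = 0.00329), and of Galnt3, from 102 ± 11.9 to 79.7 ± 1.98 CPM (log2 fold change -0.36 ± 0.09, edgeR adjusted p = 0.0259). Without MPC-PTX replicate 1, 2 or 3, the adjusted p was 0.107, 0.0929 or 0.0853 for Galnt3 and 0.0935, 0.0740 or 0.0692 for Galnt12, and it was 0.0739 for Galnt12 without MPC replicate 2.

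Galnt1 was at 106, 121 and 156 CPM in MPC and at 122.5, 131.6 and 131.8 CPM in MPC-PTX, so that the MPC libraries spanned all MPC-PTX libraries (log2 fold change 0.01 ± 0.14, edgeR adjusted p = 0.964). Galnt7 was at 69.5, 78.4 and 104.6 CPM in MPC and at 105.7, 107 and 106.0 CPM in MPC-PTX, where MPC replicate 3 came close to the MPC-PTX level (log2 fold change 0.34 ± 0.14, edgeR adjusted p = 0.120; without MPC replicate 3, 0.47 and 0.000338). Galnt4 lies within Poc1b on the same strand, and reads of that pair may have been split between them. St3gal6 with Dcbld2, B3gntl1 with Tbcd and B4galt3 with Ppox overlap on opposite strands, so their counts are uncertain too. Among the other 9 Galnt genes, Galnt5, Galnt6, Galnt9 and Galnt13 to Galnt18, the highest count in a library was 3.

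Branching enzymes moved apart. Gcnt3, which makes core 2 and core 4 branches of mucins, was the most abundant Gcnt gene in MPC, with 54.1, 56.3 and 64.7 CPM, and had 27.6, 27.5 and 26.1 CPM in MPC-PTX. Each MPC-PTX library was below each MPC library, and the log2 fold change was -1.11 ± 0.09 (edgeR adjusted p = 0.000200). Gcnt4, a core 2 enzyme as well, had 2.02, 1.495 and 3.27 CPM in MPC and 9.10, 12.6 and 9.80 CPM in MPC-PTX, a log2 fold change of 2.21 ± 0.28 (edgeR adjusted p = 0.00127). Gcnt1, the widely expressed core 2 enzyme, was at 29.5, 31.8 and 51.0 CPM in MPC and at 38.3, 40.0 and 41.4 CPM in MPC-PTX (log2 fold change 0.09 ± 0.20, edgeR adjusted p = 0.771). Gcnt2, which branches polylactosamine into I antigen, was at 48.4 ± 5.65 CPM in MPC and 41.8 ± 1.01 in MPC-PTX (log2 fold change -0.21 ± 0.10, edgeR adjusted p = 0.154).

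Per exon length, Gcnt3 held 49.7% ± 2.6 (SD, n = 3) of the summed RPKM of the Gcnt family in MPC and 29.6% ± 1.1 in MPC-PTX, while Gcnt4 held 1.59% ± 0.449 and 9.69% ± 1.54. The RPKM of Gcnt3 was 2.45, 2.37 and 1.70 times that of Gcnt1 in the MPC libraries and 0.964, 0.918 and 0.847 times in the MPC-PTX libraries. Gcnt3 thus led the family in MPC and Gcnt1 in MPC-PTX, while Gcnt4 stayed the lowest of the 4 tested. Gcnt7, the other family member, had at most 6 counts in a library.

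Of the enzymes that lengthen chains, the most abundant did not pass the test, a few scarce ones rose, and B4galt3 and B4galt7 fell. B3gnt3, which extends core 1 O-glycans with N-acetylglucosamine, had the highest RPKM of all tested members in both lines, 99.7 ± 3.69 in MPC and 94.4 ± 0.568 in MPC-PTX. Its CPM was 310.2, 312 and 292 in MPC and 290.4, 287 and 288 in MPC-PTX, without overlap but with a log2 fold change of only -0.08 ± 0.06 (edgeR adjusted p = 0.325; without MPC replicate 3, -0.16 and 0.00937). It made up 92.8% of the summed RPKM of the B3gnt and B3galt genes in MPC and 91.4% in MPC-PTX. B3galt4, which adds galactose to gangliosides, B3galt6, which builds the linker of proteoglycans, B3gntl1 and B3gnt9 were not called, with log2 fold changes of 0.21, 0.15, -0.06 and 0.38. B3galt9 had 5, 1 and 8 counts in MPC and 24, 19 and 11 counts in MPC-PTX (log2 fold change 1.83 ± 0.51, edgeR adjusted p = 0.0340). The call was lost without MPC replicate 1 or 2 (adjusted p = 0.0516 and 0.0672) and without MPC-PTX replicate 1, 2 or 3 (0.123, 0.101 and 0.0679).

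All 7 β4-galactosyltransferase genes were tested, and 2 were higher and 2 lower, beside 29.7% of all tested genes called in either direction. B4galt2 (ENSMUSG00000028541), which adds galactose to N-acetylglucosamine, had 4.04, 3.97 and 4.08 CPM in MPC and 12.9, 13.8 and 13.6 CPM in MPC-PTX. The spread within each line was narrow beside the distance between them, and the log2 fold change was 1.74 ± 0.10 (edgeR adjusted p = 5.04e-05). B4galt2 overlaps Slc6a9, a glycine transporter gene on the opposite strand, over 5939 bases of the gene spans. Slc6a9 was higher as well (log2 fold change 1.10 ± 0.26, edgeR adjusted p = 0.0203; 0.0572 to 0.0731 without MPC replicate 2 or any single MPC-PTX library). No use of strand is stated, so reads from the bases shared by this pair cannot be told apart. Ccdc24 overlaps B4galt2 on the same strand over 3298 bases, and reads may have been split between them. Its counts were 0, 3 and 1 in MPC and 3, 10 and 0 in MPC-PTX. B4galt4 rose from 9.14 ± 0.715 to 14.6 ± 0.703 CPM (log2 fold change 0.68 ± 0.10, edgeR adjusted p = 0.00322). B4galt3 fell from 29.5 ± 2.23 to 20.02 ± 0.849 CPM (log2 fold change -0.56 ± 0.09, edgeR adjusted p = 0.00410). B4galt7, which adds the first galactose of the proteoglycan linker, fell from 14.8 ± 1.79 to 9.35 ± 0.830 CPM (log2 fold change -0.66 ± 0.13, edgeR adjusted p = 0.00792).

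B4galt1, the most abundant of the family, had 83.3, 94.0 and 87.1 CPM in MPC and 87.2, 92.9 and 95.6 CPM in MPC-PTX (log2 fold change 0.06 ± 0.07, edgeR adjusted p = 0.579). B4galt5 and B4galt6 make lactosylceramide, the precursor of most glycolipids. B4galt5 had 19.6 ± 1.04 CPM in MPC and 21.4 ± 0.567 in MPC-PTX and was not called. B4galt6 had 28.2, 38.1 and 58.0 CPM in MPC and 29.4, 26.9 and 29.0 CPM in MPC-PTX, with the highest value in MPC replicate 3, and its log2 fold change was -0.54 ± 0.25 (edgeR adjusted p = 0.145; without that replicate, -0.28; in DESeq2, adjusted p = 0.0422). The summed RPKM of the family was 46.7 in MPC and 45.7 in MPC-PTX, with B4galt2 at 1.72% ± 0.123 of it in MPC and 5.84% ± 0.159 in MPC-PTX.

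**Figure D3:**
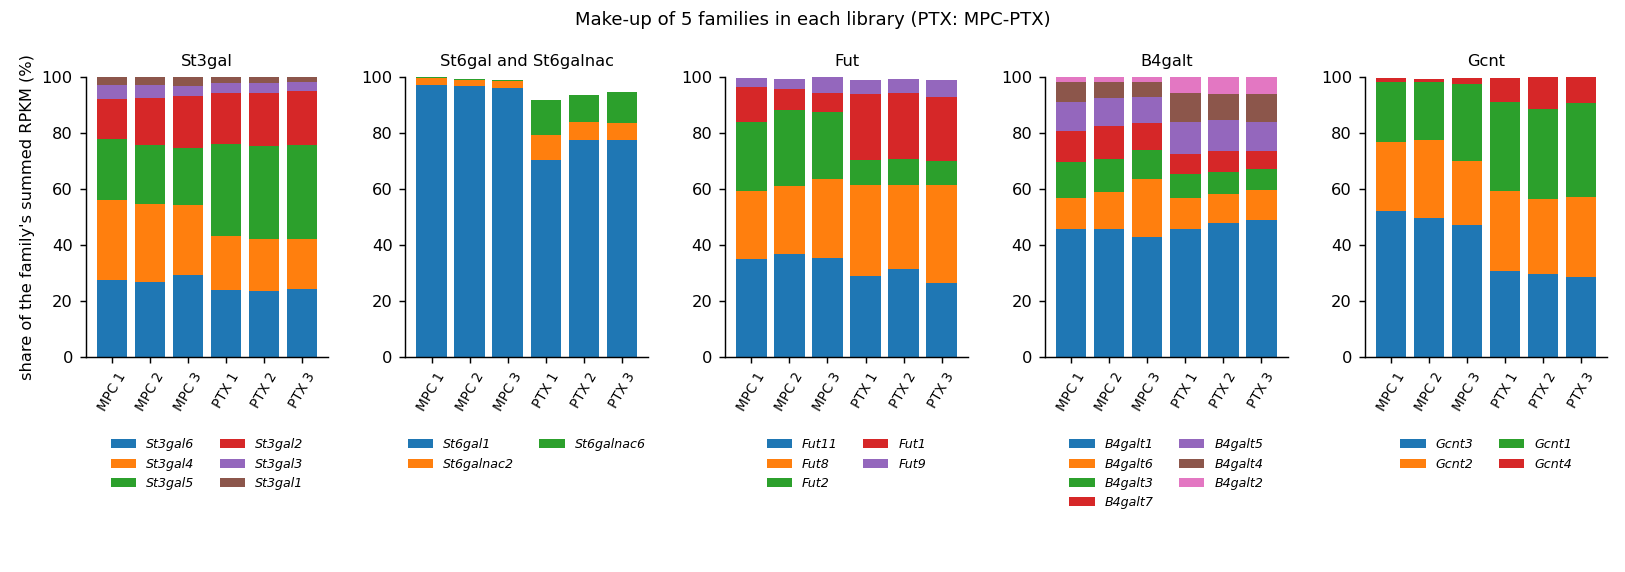
Share of the family's summed RPKM (vertical axis, %) held by each tested member in each of the 6 libraries, for the St3gal, St6gal and St6galnac, Fut, B4galt and Gcnt families (PTX 1 to 3: MPC-PTX replicates). Bars end below 100% by the share of members that were not tested; St3gal5, Fut1 and Gcnt4 hold a larger share in every MPC-PTX library, and St6gal1, Fut2 and Gcnt3 a smaller one.

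Fucosyltransferases were led by a swap between a pair of neighbours. Fut1 and Fut2 both add α1,2-linked fucose and so make the blood group H structure, Fut2 being the secretor gene of mucosal epithelia, and they lie 27.5 kb apart on chromosome 7. Fut2 had 19.6, 21.8 and 22.1 CPM in MPC and 7.73, 8.57 and 7.78 CPM in MPC-PTX (log2 fold change -1.40 ± 0.10, edgeR adjusted p = 0.000121). Fut1 had 4.99, 3.04 and 3.27 CPM in MPC and 10.4, 10.7 and 10.6 CPM in MPC-PTX (log2 fold change 1.49 ± 0.19, edgeR adjusted p = 0.00143). Neither gene overlapped between the lines. The RPKM of Fut1 was 0.497, 0.272 and 0.288 times that of Fut2 in the MPC libraries and 2.62, 2.44 and 2.65 times in the MPC-PTX libraries, so the order of the pair was turned in every library. In RPKM, Fut1 was at 1.35 ± 0.383 in MPC and 3.79 ± 0.0630 in MPC-PTX, and Fut2 at 3.90 ± 0.251 and 1.48 ± 0.0861. Sec1, another α1,2-fucosyltransferase gene 11.3 kb beyond Fut2, had 0.443 CPM in MPC and 1.18 CPM in MPC-PTX (log2 fold change 1.40 ± 0.35, edgeR adjusted p = 0.0209). It had 12, 5 and 9 counts in MPC and entered the test through MPC-PTX alone. Its call was lost without MPC replicate 2 or any single MPC-PTX library (adjusted p = 0.0555 to 0.0825). These genes are similar in sequence, and how reads that map to several places were treated is not given in the sources used here, so their counts are uncertain to that extent.

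Fut8, the only enzyme of core α1,6-fucose on N-glycans, had 27.8, 27.9 and 37.9 CPM in MPC and 40.5, 38.6 and 45.4 CPM in MPC-PTX. The lines did not overlap, but the test did not pass (log2 fold change 0.41 ± 0.14, edgeR adjusted p = 0.0637). Without MPC replicate 3 it did (0.52, adjusted p = 0.000901). Fut9, which makes Lewis x, was at 8.92 ± 3.62 CPM in MPC and 12.03 ± 1.54 in MPC-PTX, and Fut11 at 23.4 ± 2.04 and 20.1 ± 1.78, and neither was called. Fut4 and Fut7, the α1,3-fucosyltransferases of leukocyte selectin ligands, had at most 1 and 3 counts in any library. Fut10 had 4, 8 and 0 counts in MPC and 16, 7 and 14 in MPC-PTX and was not tested.

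The gene for α2,6-linked sialic acid on galactose fell in MPC-PTX, while the summed level of the genes for α2,3-linked sialic acid was not lower. St6gal1 (ENSMUSG00000022885, chromosome 16 of GRCm38, 23224740 to 23360350), the main α2,6-sialyltransferase of N-glycans, had 92.5, 118 and 107 CPM in MPC and 6.02, 7.48 and 6.36 CPM in MPC-PTX. The lowest MPC library was far above the highest MPC-PTX library. Its log2 fold change was -4.00 ± 0.13 (edgeR adjusted p = 8.81e-06), and it lay between -4.09 and -3.91 when any library was left out. In RPKM, St6gal1 was number 7 of the 44 tested members in MPC (21.5 ± 2.62) and number 38 in MPC-PTX (1.35 ± 0.156). Set against St3gal6, whose level was about the same in both lines, the RPKM of St6gal1 was 0.902, 1.18 and 1.02 times as high in the MPC libraries and 0.0612, 0.0768 and 0.0622 times in the MPC-PTX libraries. St6gal2, the other gene of this linkage, was at 0 in all 6 libraries.

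All 6 α2,3-sialyltransferase genes were tested, and 2 were higher and 2 lower (29.7% of all tested genes were called), with 0 past the fold limit (7.73% of all tested genes). St3gal5, which makes the ganglioside GM3, had 43.5, 42.0 and 38.8 CPM in MPC and 72.1, 73.2 and 75.7 CPM in MPC-PTX (log2 fold change 0.83 ± 0.07, edgeR adjusted p = 0.000278). It was the third by RPKM within its family in MPC and the first in MPC-PTX, with 21.2% ± 0.8 and 33.2% ± 0.4 of the family's summed RPKM. St3gal2 rose from 61.9 ± 6.53 to 80.4 ± 3.04 CPM (log2 fold change 0.38 ± 0.09, edgeR adjusted p = 0.0199). St3gal1, which like St3gal2 caps core 1 O-glycans, fell from 14.9 ± 0.338 to 11.8 ± 0.474 CPM (log2 fold change -0.34 ± 0.09, edgeR adjusted p = 0.0274). St3gal4, which caps lactosamine, had 62.5, 61.6 and 53.3 CPM in MPC and 48.3, 45.0 and 45.5 CPM in MPC-PTX (log2 fold change -0.35 ± 0.09, edgeR adjusted p = 0.0201). The calls of St3gal1, St3gal2 and St3gal4 were lost without MPC replicate 2 (adjusted p = 0.0828, 0.0599 and 0.0808), without MPC-PTX replicate 1 (0.103, 0.0616 and 0.0620), without replicate 2 (0.0894, 0.0789 and 0.0984) and without replicate 3 (0.118, 0.0903 and 0.0910). St3gal6, the most abundant of the family in MPC, was at 129 ± 2.90 CPM in MPC and 125 ± 3.16 in MPC-PTX (log2 fold change -0.04 ± 0.06, edgeR adjusted p = 0.592), and St3gal3 was not called (log2 fold change -0.19). The summed RPKM of the family was 74.7 in MPC and 84.8 in MPC-PTX, while that of the St6gal and St6galnac genes was 22.2 and 1.79.

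Enzymes that put sialic acid on GalNAc or on another sialic acid were scarce in both lines. St6galnac2, which adds sialic acid to the GalNAc of O-glycans, had 48, 63 and 65 counts in MPC and 21, 16 and 10 counts in MPC-PTX, or 2.55, 3.25 and 3.12 against 0.897, 0.721 and 0.594 CPM (log2 fold change -1.98 ± 0.23, edgeR adjusted p = 0.000944). A second row of the same name, on the same strand and overlapping it by 3808 bases, had 0, 4 and 7 counts in MPC and 0, 0 and 1 in MPC-PTX and was not tested, and reads could have been split between the pair. St6galnac6, which acts on gangliosides, had 6, 8 and 10 counts in MPC and 25, 20 and 15 in MPC-PTX (log2 fold change 1.23 ± 0.30, edgeR adjusted p = 0.0191). That call was lost in DESeq2 (adjusted p = 0.0892), without MPC replicate 2 (0.0599) and without MPC-PTX replicate 1, 2 or 3 (0.0854, 0.0629 and 0.0586). St8sia6, which adds an α2,8-linked sialic acid to another one, was the only testable St8sia gene, with 26, 33 and 83 counts in MPC and 18, 22 and 14 in MPC-PTX. Its log2 fold change was -1.45 ± 0.45 (edgeR adjusted p = 0.0462) and fell in size to -0.88 without MPC replicate 3 (adjusted p = 0.0342). The call was lost with library size alone (adjusted p = 0.0501), without MPC replicate 2 (0.0683) and without MPC-PTX replicate 1, 2 or 3 (0.147, 0.111 and 0.131).

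**Figure D4:**
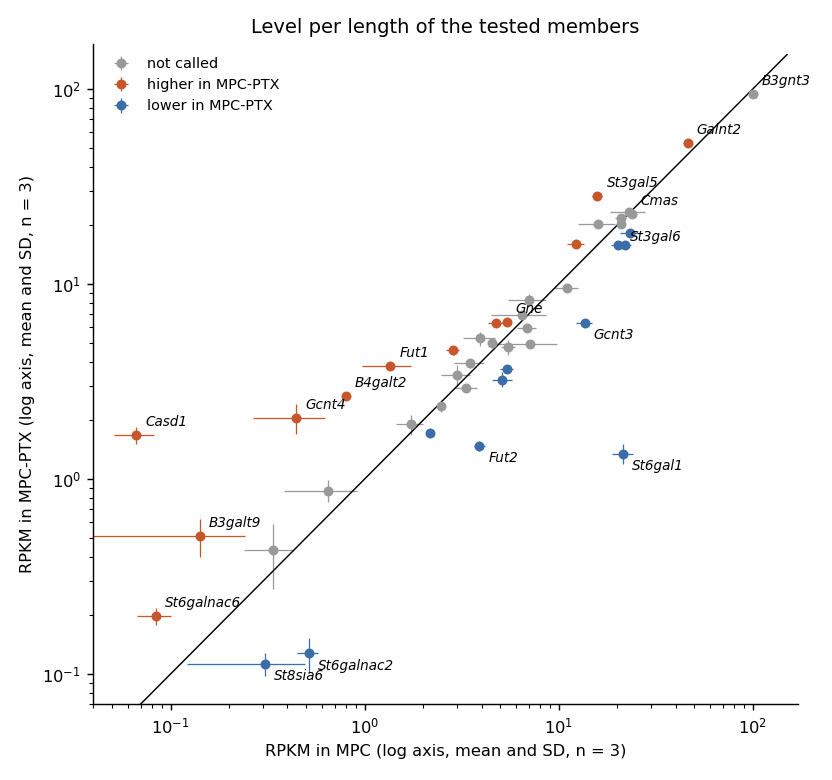
Mean RPKM of each tested member in MPC (horizontal, log axis) and in MPC-PTX (vertical, log axis), with bars for the SD over 3 libraries and a line of equal levels. B3gnt3 and Galnt2 lie at the top near the line, St6gal1 lies far below it at 21.5 against 1.35, and Casd1 far above it at 0.0666 against 1.68.

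Of the 33 members that were not tested, 31 had under 10 counts in each library, and 7 of these had no count at all. The tested set is therefore not the whole family, and 3 of the 6 members that rose past the fold limit (Casd1, B3galt9 and St6galnac6) had under 10 counts in at least 1 MPC library, so they could enter the test only through MPC-PTX. St6galnac4, which adds sialic acid to the GalNAc of sialylated core 1, had 1, 2 and 0 counts in MPC and 16, 18 and 6 in MPC-PTX. The ratio of its summed counts per library total was 13.0 (95% exact interval 4.12 to 65.4, counting error only), and with no filter on low counts edgeR gave it a log2 fold change of 3.47 (adjusted p = 0.00800). B3gnt2, an enzyme of polylactosamine, had 1, 0 and 0 counts against 4, 5 and 3, a ratio of 11.7 (1.72 to 498). It overlaps Gm28048 on the same strand over 26218 bases of the gene spans. Gm28048 had no count in any library, and how reads shared by this pair were counted is not known. B3gnt8, which overlaps Bckdha on the opposite strand, had 1, 1 and 1 against 5, 7 and 3, a ratio of 4.86 (1.37 to 26.2). With no filter, the edgeR adjusted p was 0.0655 for B3gnt2 and 0.0804 for B3gnt8, so neither passed that test. St8sia2 and St8sia5 were at 0 in all libraries, St8sia3 had 1 count in all, St8sia1 at most 2 and St8sia4 at most 8 in a library.

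Other genes of these pathways were taken as lists by name. Over all tested genes, 14.1% were higher and 15.6% lower. Of 20 tested genes of donor sugar supply, Galk2 was higher and Nagk lower, and the median log2 fold change was 0.10 beside 0.04 over all tested genes. Of 16 genes that keep these enzymes in the Golgi, edgeR and DESeq2 called 0, at an unadjusted p under 0.05 edgeR had 2 higher and 1 lower, and the log2 fold changes lay between -0.31 and 0.33 with a median of 0.04. Of 11 tested genes that trim and branch N-glycans, 1 was higher (Man1a) and 2 were lower (Mgat5 and Mgat3, log2 fold changes -0.92 and -0.57), with a median of -0.01. The share called, 27.3%, was near the 29.7% of all tested genes. Of 15 tested genes that remove the same sugars or help to, 2 were higher and 5 lower, with a median of -0.19. None of these 4 lists had a gene past the fold limit, beside 7.73% of all tested genes. Among 17 tested transferases that share substrates with the members, 4 were higher and 5 lower, with a median of -0.05. The widest of these differences was in Ggta1, the enzyme of the α1,3-galactose epitope, with 120, 146 and 129 counts in MPC and 1, 4 and 1 in MPC-PTX (log2 fold change -6.04 ± 0.33, edgeR adjusted p = 3.81e-05). With so few counts in MPC-PTX, Ggta1 entered the test through the MPC libraries alone. B4galnt3, which makes the GalNAc-GlcNAc unit, fell from 7.57 ± 0.416 to 2.84 ± 0.512 CPM (log2 fold change -1.41 ± 0.16, edgeR adjusted p = 0.000906).

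Of 7 tested genes of sulfation, 2 were higher and 4 lower, beside 14.1% and 15.6% of all tested genes, with a median of -0.21. Papss2, a synthase of the sulfate donor, fell from 7.45 ± 1.82 to 1.17 ± 0.264 CPM (log2 fold change -2.69 ± 0.26, edgeR adjusted p = 0.000432). Papss1, the other synthase of that donor, was far more abundant and fell little (log2 fold change -0.21, edgeR adjusted p = 0.0268). In RPKM, Papss1 was at 62.8 in MPC and 54.3 in MPC-PTX, and Papss2 at 2.00 and 0.313. Chst3, a chondroitin sulfotransferase, rose from 2.16 ± 0.166 to 8.50 ± 1.17 CPM (log2 fold change 1.97 ± 0.16, edgeR adjusted p = 0.000192). Of 8 tested genes of lectins for galactose or sialic acid and their relatives, such as Lgalsl, 1 was higher and 3 were lower, with a median of -0.22. Over all tested genes, 14.1% were higher and 15.6% lower. The galectin Lgals1 rose from 204 ± 60.7 to 803 ± 37.7 CPM (log2 fold change 1.98 ± 0.20, edgeR adjusted p = 0.000738). The galectins Lgals9 and Lgals4 fell, by 2.59 and 2.61 on the log2 scale (edgeR adjusted p = 8.81e-06 and 0.000242). Selp, a selectin that binds sialylated and fucosylated glycans, had 39, 43 and 38 counts in MPC and 2, 0 and 1 in MPC-PTX, and the ratio of MPC-PTX to MPC was 0.0243 (95% exact interval 0.00494 to 0.0727). Selp entered the test through the MPC libraries alone.

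The genes next to the 11 members past the fold limit were compared to see whether whole regions moved with them. For each member the 3 nearest tested genes on either side were taken. None of the 6 genes around Gcnt4 was called, and their log2 fold changes lay between -0.16 and -0.0027. Around Casd1 the nearest tested genes were 513.9 and 577.5 kb away, none of the 6 was higher, and Pon3 was lower (log2 fold change -0.59). Around St6gal1, Masp1 (89.1 kb after it) and Rtp4 (159.9 kb after it) were lower as well, with log2 fold changes of -3.69 ± 0.24 and -2.06 ± 0.18 (edgeR adjusted p = 7.98e-05 and 0.000265), while the 3 genes before it, Kng2, Eif4a2 and Rfc4, were not called and Bcl6 was higher (0.31). Of the 6 genes around Gcnt3, 4 were lower and none higher, Fam81a with a log2 fold change of -1.70. Vim, 68.2 kb from St8sia6, was higher (3.11) where St8sia6 was lower, and so was Hacd1 (0.88). Beside B3galt9, Phf19 at 54.0 kb was higher (1.41) and Cutal at 34.7 kb was lower (-0.74). Beside St6galnac6, which rose, Fam102a was lower (-0.81). St6galnac4, which was not tested and so is not among these neighbours, lies directly before St6galnac6 on the same strand. On chromosome 2, St6galnac4 ends at 32599698 and St6galnac6 starts at 32599709. The counts of St6galnac4 were 1, 2 and 0 in MPC and 16, 18 and 6 in MPC-PTX. How reads near that border were assigned is not known. Ak1, 1.0 kb beyond St6galnac6, was higher (1.29 ± 0.28, edgeR adjusted p = 0.0134; without MPC-PTX replicate 1 or 2, 0.0630 and 0.0600), and so was Izumo1, 0.8 kb beyond Fut1 (2.35 ± 0.44, edgeR adjusted p = 0.00752). Izumo1, Ak1, Sec1 and Vim had under 10 counts in at least 1 MPC library, so they could enter the test only through MPC-PTX. Masp1 had 5 counts in MPC-PTX replicate 3 and could enter it only through MPC. Fut2 fell among genes that did not: of its 6 neighbours Fut1, Izumo1 and Sec1 were higher, Rasip1, Dbp and Sphk2 were not called, and the median log2 fold change was 1.25. The 6 genes around St6galnac2 lay between -0.31 and 0.43, with Jmjd6 higher and Srsf2 lower. The 3 after B4galt2 lay between 0.32 and 0.49, and of these Ipo13 was higher (0.49, edgeR adjusted p = 0.018). Slc6a9, before B4galt2, overlaps it and was higher as well.

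**Figure D5:**
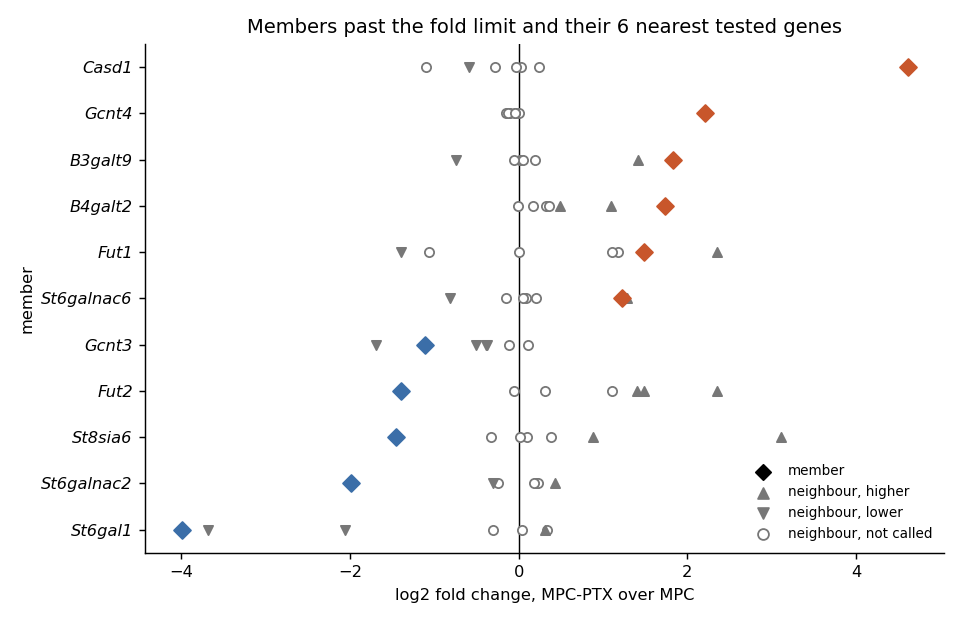
Log2 fold change (horizontal axis) of each of the 11 members past the fold limit (diamonds) and of its 6 nearest tested genes (grey triangles up for higher, down for lower, open circles for not called). The genes around Casd1 and Gcnt4 lie near or below 0, Masp1 and Rtp4 lie with St6gal1 on the left, genes on both sides of 0 surround Fut1, and all but 1 of the genes around Fut2 lie above 0.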

How the data were processed

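Poly-A selected RNA of 3 MPC and 3 MPC-PTX libraries was sequenced. The table that the authors deposited holds whole-number read counts by gene and library, made from reads cleaned with fastp 0.22.0 and aligned with HISAT2. The genome build, annotation, counting tool, use of strand and treatment of reads mapping to several places are not given in the sources used here. The members and the gene lists were chosen with earlier results of these data known.

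Genes passing filterByExpr (minimum count 10) were fitted with TMM scaling in edgeR 4.0.16 under R 4.3.3 (robust glmQLFit, two-sided glmQLFTest), which left 11795 genes for the Benjamini-Hochberg adjustment. Standard errors were taken as the absolute log2 fold change over the root of the F statistic. The script was tested on simulated data. An exact permutation test of 3 libraries against 3 reaches at best p = 0.1, so calls rest on the fit across genes. Ratios of summed counts have exact binomial (Clopper-Pearson) intervals at 95%, for counting error only. Lengths and positions are those of GENCODE M21 on GRCm38, found through the Ensembl identifier for 77 of 77 members and 11779 tested genes. Library totals ran from 16574580 to 23148182 counts.

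Named members were those past the test and a log2 fold change of 1, the 4 sialic acid genes, the 3 of each family with the highest RPKM, and those removed by the filter with at least 10 counts in a library. List genes past both limits and the nearest neighbours were named too. A gene list with items withheld from this text is not reported here. Other members and genes were added once their values had been seen. The alternatives were DESeq2 1.42.0, its size factors in edgeR, library size alone, no filter, at least 10 counts in every library, the replicate number as a block, a loess correction for GC content and length (span 0.3), both together, glmTreat, and each library left out in turn.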

Additional observations from a re-analysis of the deposited data

How the results depend on the processing

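Members were called in different numbers under other settings, and the cause was not tested. With at least 10 counts required in every library, 7 members were higher and 3 were higher past the fold limit: 3 members of low count left the test, and Galnt2 and Gne were tested but lost their calls (adjusted p = 0.130 and 0.110). With glmTreat, which tests against the fold limit itself, 3 were higher (Casd1, B4galt2, Gcnt4) and 3 lower (St6gal1, Fut2, St6galnac2). With 1 library left out, 6 to 16 members were higher and 7 to 14 lower, 4 to 7 higher and 4 to 5 lower past the fold limit. The deviations of same-numbered libraries had Pearson's r across 11795 genes of 0.151, -0.023 and 0.173, and those of differently numbered ones -0.228 to 0.153. With 3 libraries per line, these values cannot decide whether the numbers pair the samples. A replicate block gave 10 members higher and 10 lower, and 5 of each past the fold limit. Without a block, the correction for GC content and length gave 14 and 14, while the share of all genes called went from 29.7% to 40.1%.

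Directions turned only in members near 0 that were not called. For Galnt1 the log2 fold change was -0.024 in DESeq2 and with its size factors in edgeR, -0.02 with at least 10 counts in every library, -0.033 with the correction for GC content and length and -0.029 with that and the block, and it ranged from -0.108 to 0.128 with 1 library left out. That of Gcnt1 was -0.001 with the correction for GC content and length and ranged from -0.056 to 0.324 with 1 library left out, that of B4galt1 from -0.002 to 0.108 and that of B3galt6 from -0.031 to 0.238. Depth limits the 33 untested members and the 3 with under 10 counts in an MPC library.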
